A study of Mus musculus with 6 samples.

Results

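The genes described here encode the MHC class II antigen presentation machinery: Cd74, H2-Aa, H2-Ab1, H2-Eb1, H2-DMa, H2-DMb1 and Ciita. They were chosen by name, their symbols were matched to the NCBI gene numbers of the count files, and all 7 were found among 23282 gene numbers. The files count reads by gene in 9 libraries of mouse blood-forming cells from 6 samples, all on a mixed 129/Sv and C57BL/6 background. LSK cells are marrow cells that lack lineage markers and bear Sca1 and c-Kit, among which the blood stem cells are found. Both LSK mice were 2-month-old littermates, carried the interferon-driven Mx-Cre transgene and received polyIC. They gave 1 library labelled Mll4f/f + Cre (Mll4 deleted) and 1 labelled WT, each from about 50 picked cells after PCR amplification. MLL-AF9, a fusion oncogene of acute leukaemia, transforms marrow cells after retroviral transfer, and all such cells were labelled as grown for 14 days. In the first transformation, marrow labelled Mll4f/f was given MLL-AF9 and then a retrovirus with Cre and Tomato Red (Mll4 deleted, 2 libraries) or an empty one (Mll4 intact, 2 libraries), and cells positive for GFP and Tomato were sorted 5 days after that infection. In a second transformation, marrow labelled MLL4-/- received MLL-AF9-neo with either a FOXO3-IRES-GFP retrovirus (FOXO3, 2 libraries) or an empty vector (1 library), followed by G418 selection and a sort for GFP 1 week later. Cre therefore goes with Mll4 deletion in the first transformation. Mll4 (gene symbol Kmt2d) makes an enzyme that methylates histone H3 at enhancers, and FOXO3 is a forkhead transcription factor.

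Class II molecules carry peptides from the endosomes to the cell surface, where helper T cells read them. An alpha and a beta chain pair in the endoplasmic reticulum with the invariant chain CD74, which fills the groove and guides the complex to the endosome. There H2-DM, itself an alpha-beta pair, exchanges the last fragment of CD74 for peptide, and H2-DO holds H2-DM back. Transcription of these genes depends on CIITA, a coactivator that does not bind DNA itself but docks on factors at a shared promoter module. In that module the RFX complex (Rfx5, Rfxap and Rfxank) binds the X box and NF-Y binds the Y box. Macrophages, dendritic cells and B cells are the usual class II positive cells of the marrow.

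Letters of the module were looked for in promoters of the members and their relatives, and 5 that hold them are shown here to let the arrangement be read. RefSeq promoter windows (GRCm38.p6, from 250 bases before to 50 bases after the start) were given for 4 members (H2-Aa, H2-Eb1, H2-DMa and H2-DMb1) and for their relatives H2-Oa and H2-Ob, which encode H2-DO, H2-DMb2 and H2-Eb2. They were searched on both strands for GNAAC (a core of the X box), ATTGG (the core of the Y box) and the pair GNAAC, 24 to 32 bases, ATTGG. Below, each stretch runs 5′ to 3′ along the gene and ends at the last base before the start, and capitals mark the X and Y cores of the pair.
H2-Aa (chr17:34287824-34287924, minus strand): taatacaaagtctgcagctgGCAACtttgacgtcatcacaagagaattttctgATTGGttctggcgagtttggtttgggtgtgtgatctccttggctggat
H2-Eb1 (chr17:34305756-34305866, plus strand): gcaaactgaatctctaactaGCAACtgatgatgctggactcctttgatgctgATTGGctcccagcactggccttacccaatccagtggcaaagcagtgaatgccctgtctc
H2-DMb1 (chr17:34153077-34153190, plus strand): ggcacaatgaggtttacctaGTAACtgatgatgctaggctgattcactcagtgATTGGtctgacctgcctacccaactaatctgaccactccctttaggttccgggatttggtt
H2-Oa (chr17:34092283-34092378, plus strand): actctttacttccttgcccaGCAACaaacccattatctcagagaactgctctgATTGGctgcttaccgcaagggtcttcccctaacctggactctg
H2-Ob (chr17:34238798-34238904, plus strand): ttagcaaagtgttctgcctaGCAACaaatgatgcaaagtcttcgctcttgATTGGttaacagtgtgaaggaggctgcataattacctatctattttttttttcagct

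In each of these 5 promoters the pair lies on the gene's own strand and close to the start. Its X core begins at −81 in H2-Aa, −91 in H2-Eb1, −94 in H2-DMb1, −76 in H2-Oa and −87 in H2-Ob, counted back from the start. The pair stood in 1.54% of all 32851 promoter windows on either strand and in 0.743% on the gene's strand. The single cores are common: ATTGG stood in 37.4% and GNAAC in 84.8% of the windows. H2-Eb2, not printed, also held it, with the X core at −132. The 2 windows of H2-DMa and the window of H2-DMb2 did not hold these letters in this arrangement, so 3 of the 4 members searched had the pair. A match of letters is a description of the promoter and no evidence of binding.

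Before the members, the libraries were checked. Totals ran from 25895041 to 61950773 counts. Kmt2d, the targeted gene, had 73.7 and 95.6 CPM (counts scaled so that every library has the same total) with the label Mll4 deleted, and intact libraries had 61.7 and 79.5 CPM. In LSK cells it stood at 13.9 CPM with the label Mll4 deleted and at 1.88 CPM in wild type, which goes against the label. Counts cover the whole gene and the labels do not name the exons removed, so Kmt2d is no check of the deletion here. Foxo3 stood at 1292 and 1309 CPM in the FOXO3 libraries and at 27.3 CPM with the empty vector. The FOXO3 pair was far closer than the others, with a chi-square per degree of freedom of 2.01 against 154 and 201. Xist stood at 771 CPM in Mll4 deleted library 1 and 687 CPM in intact library 2 and 0.936 to 2.21 CPM in the other MLL-AF9 libraries, so each pair of the first transformation held 1 female and 1 male library. The labels do not tie the libraries of 1 sample to separate cultures, so the spread behind each p-value is that of these libraries alone. A female and a male library are not technical repeats of the same marrow. The FOXO3 libraries were both male, and the spread of that pair may be technical. LSK libraries held c-Kit (Kit, 102 CPM in the library labelled Mll4 deleted and 46.8 CPM in the wild type one) and Sca1 (Ly6a, 28.2 and 80.2 CPM). Cd3e, Csf1r and Itgax had 0 counts in both, but other markers of mature cells were present. At 0 counts were 4 and 6 of 10 T and NK cell markers, 9 and 11 of 14 macrophage markers and 8 and 9 of 16 dendritic cell markers. Nkg7 stood at 9.92 and 47.3 CPM and Clec10a at 76.9 and 11.3 CPM.

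**Figure D1:**
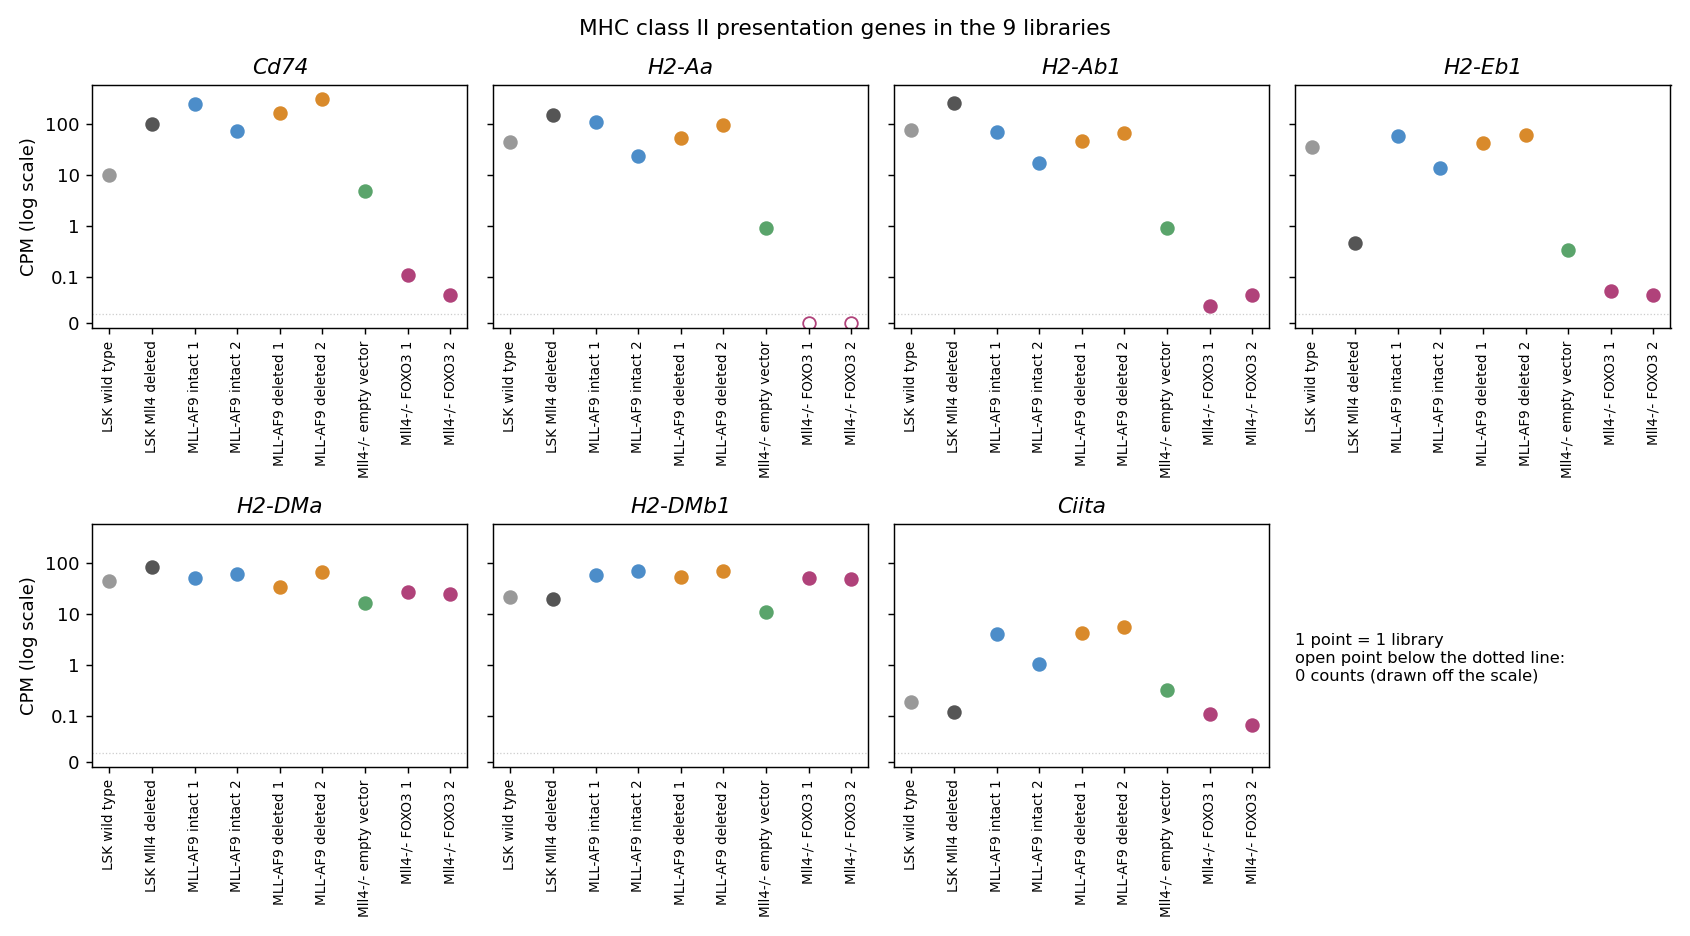
CPM of each member on a log axis, 1 point per library, coloured by group, with libraries at 0 counts drawn as open points below the dotted line. Cd74, the 3 class II chains and Ciita are low in the empty-vector library and lowest in both FOXO3 libraries, whereas H2-DMa and H2-DMb1 stay above 10 CPM in every library.

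The class II chains and Cd74 separated the transformations. Cd74, the invariant chain, stood at 252 and 73.8 CPM in the intact libraries, 171 and 322 CPM in the Mll4 deleted libraries, 4.82 CPM with the empty vector and 0.108 and 0.0446 CPM with FOXO3. The ranges of the intact and Mll4 deleted groups overlapped, and every library of the second transformation lay below every library of the first. H2-Aa, the alpha chain of the A molecule, stood at 113 and 24.2 CPM in the intact libraries, 53.9 and 97.3 CPM in the Mll4 deleted libraries and 0.933 CPM with the empty vector. It had 0 counts in both FOXO3 libraries, which allows a level of up to 0.0366 CPM over the pair (3 counts of both totals, counting error only).

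H2-Ab1, the beta chain that pairs with H2-Aa, stood at 72.6 and 17.3 CPM in the intact libraries, 47.9 and 67.4 CPM in the Mll4 deleted libraries, 0.914 CPM with the empty vector and 0.0270 and 0.0446 CPM with FOXO3. H2-Eb1, the beta chain of the E molecule, stood at 60.1 and 14.1 CPM in the intact libraries, 42.9 and 61.2 CPM in the Mll4 deleted libraries, 0.343 CPM with the empty vector and 0.0539 and 0.0446 CPM with FOXO3. Both beta chains showed the order of Cd74. The FOXO3 values of Cd74, H2-Ab1 and H2-Eb1 are 1 to 4 counts per library. H2-Ea, the alpha partner of H2-Eb1, had 0 counts in all 9 libraries. As background, C57BL/6 and 129 mice carry an H2 haplotype that does not make the E alpha chain, so their H2-Eb1 RNA has no partner.

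Ciita, the coactivator, stood at 4.07 and 1.03 CPM in the intact libraries, 4.20 and 5.52 CPM in the Mll4 deleted libraries, 0.324 CPM with the empty vector and 0.108 and 0.0668 CPM with FOXO3. In the 7 MLL-AF9 libraries it was thus high where the chains were high and low where they were low. In the LSK libraries it was not: Ciita had 3 and 5 counts in the libraries labelled Mll4 deleted and wild type (0.116 and 0.188 CPM). H2-Ab1 had 6734 and 2092 counts there. Both libraries came from about 50 cells after PCR amplification, so these counts do not show that the chains were made without Ciita.

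The H2-DM genes had another pattern. H2-DMa, the alpha chain, stood at 51.0 and 61.3 CPM in the intact libraries, 33.3 and 68.0 CPM in the Mll4 deleted libraries, 16.2 CPM with the empty vector and 26.8 and 24.9 CPM with FOXO3. H2-DMb1, its beta chain, stood at 58.4 and 69.1 CPM in the intact libraries, 52.4 and 69.9 CPM in the Mll4 deleted libraries, 11.02 CPM with the empty vector and 50.6 and 48.1 CPM with FOXO3. For both genes the empty-vector library was the lowest of the MLL-AF9 libraries, and for H2-DMb1 the FOXO3 pair came close to the lowest library of the first transformation. Reads of H2-DMb1 may be shared with its copy H2-DMb2, since 27.2% of the 50-base words of H2-DMb1 transcripts also occur in H2-DMb2. No such word was shared by any other of the 55 pairs compared among the members and their H2 relatives.

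Levels of different genes were compared per kilobase of the longest coding transcript (GENCODE M21). In the first transformation Cd74 was the most abundant member, at 1.78 to 2.65 times H2-Aa per kilobase, and H2-Aa ran at 1.21 to 1.67 times H2-Ab1. The ratio of H2-Eb1 to H2-Ab1 per kilobase ran from 0.592 to 0.659 in these libraries. In the empty-vector library it was 0.272. H2-Ab1 per kilobase ran at 0.291 to 1.44 times H2-DMb1 in the first transformation and at 0.0960 times with the empty vector. LSK libraries had another balance, with Cd74 at 0.547 (Mll4 deleted) and 0.180 (wild type) times H2-Aa per kilobase.

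The chain genes also varied within the groups of the first transformation. Intact library 1 held 3.41 times the Cd74 level of intact library 2, 4.67 times that of H2-Aa, 4.18 times that of H2-Ab1, 4.25 times that of H2-Eb1 and 3.95 times that of Ciita. The H2-DM genes did not share this gap, at 0.833 (H2-DMa) and 0.844 (H2-DMb1) times. Mll4 deleted library 2 held 1.31 to 1.88 times the level of library 1 for the chains, Cd74 and Ciita. In both pairs the female library was the lower one for these 5 genes, and the part of sex was not tested beyond a fit with sex as a term. The summed level of 14 macrophage markers chosen by name did not follow the gap in the intact pair, at 3452 CPM in library 1 and 3954 CPM in library 2. In the Mll4 deleted pair it was 1743 and 2850 CPM. The summed level of neutrophil markers (9 genes) did move with the chains in both pairs. It was 11914 and 5593 CPM in intact libraries 1 and 2 and 10886 and 13142 CPM in Mll4 deleted libraries 1 and 2. Single genes went against it: Mmp8 in the intact pair (929 and 1128 CPM), and Ltf (484 and 381 CPM), Ngp (1739 and 1677 CPM) and Cxcr2 (128 and 73.2 CPM) in the Mll4 deleted pair. T and NK cell markers (10 genes) summed to 1066 and 413 CPM in the intact pair, in the direction of the chains, and to 763 and 134 CPM in the Mll4 deleted pair, in the opposite one. The part of these markers in the spread of the class II genes was not tested.

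To see what Mll4 loss did in transformed cells, the Mll4 deleted libraries were set against the intact ones. By edgeR's quasi-likelihood test, fitted over 14997 genes in the 7 MLL-AF9 libraries, 0 of the 7 members passed an adjusted p of 0.05, beside 14.9% of all genes (7.97% higher and 6.94% lower). At an unadjusted p under 0.05 the count was also 0, and DESeq2 called 0. Log2 fold changes were 0.36 ± 0.56 for Cd74, −0.09 ± 0.71 for H2-Aa, 0.13 ± 0.58 for H2-Ab1, 0.25 ± 0.58 for H2-Eb1 and 0.69 ± 0.59 for Ciita (edgeR, ± SE; adjusted p = 0.459 to 0.946). For H2-DMa and H2-DMb1 they were −0.44 ± 0.34 and −0.35 ± 0.20 (adjusted p = 0.419 and 0.271). These errors leave room for changes in either direction, and the intact pair spread widely for each of the chain genes. The signs of Cd74, H2-Ab1 and H2-Eb1 turned without intact library 2 (−0.23, −0.53 and −0.41) and without Mll4 deleted library 2 (−0.17, −0.14 and −0.03). That of H2-Aa turned without intact library 1 (1.29) and without Mll4 deleted library 1 (0.34). Without Mll4 deleted library 2, H2-DMa was called lower (−1.04, adjusted p = 0.0354).

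The median log2 fold change of the members was 0.13, against −0.03 over all genes tested. Genes around the class II pathway did pass in the same comparison, by lists of genes chosen by name. Over all genes tested, 14.9% passed, 7.97% higher and 6.94% lower. Of 18 tested genes of class II antigen processing 5 fell and 0 rose, with a median of −0.70, among them the lysosomal proteases Ctsd (−1.95 ± 0.27, adjusted p = 0.014), Ctsz (−0.94 ± 0.19, adjusted p = 0.0298) and Ctsl (−2.42 ± 0.51, adjusted p = 0.0346). Cathepsin S, Ctss, which cuts the invariant chain, had −1.38 ± 0.40 (adjusted p = 0.0726). Of 10 T cell costimulation genes, Cd274 (−1.34 ± 0.18, adjusted p = 0.0136) and Cd80 (−1.34 ± 0.26, adjusted p = 0.0284) fell, and Cd86 had −1.33 ± 0.33 (adjusted p = 0.051). Of 22 class II regulators, Irf4, Jak1 and Ep300 fell, while the RFX genes Rfx5 (0.23 ± 0.14), Rfxap (0.31 ± 0.15) and Rfxank (0.34 ± 0.20) did not pass.

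Class I genes, which present peptides from the cytosol, had 3 of 16 members lower and 1 higher. These were the heavy chains H2-D1 (−1.12 ± 0.12, adjusted p = 0.0101) and H2-K1 (−0.95 ± 0.13, adjusted p = 0.0131), their shared light chain B2m (−1.15 ± 0.22, adjusted p = 0.0284) and the chaperone Calr, which rose (1.01 ± 0.15, adjusted p = 0.0163). Markers of macrophages had 1 of 14 tested genes lower, those of dendritic cells 1 of 14 and those of B cells 2 of 8. Over all genes tested 6.94% were lower. With the FOXO3 pair summed into 1 library, 2.08% of all genes were called and none of these calls in the processing, costimulation, regulator, class I and B cell lists remained. The macrophage call (Clec7a) and the dendritic cell call (Itgax) did.

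**Figure D2:**
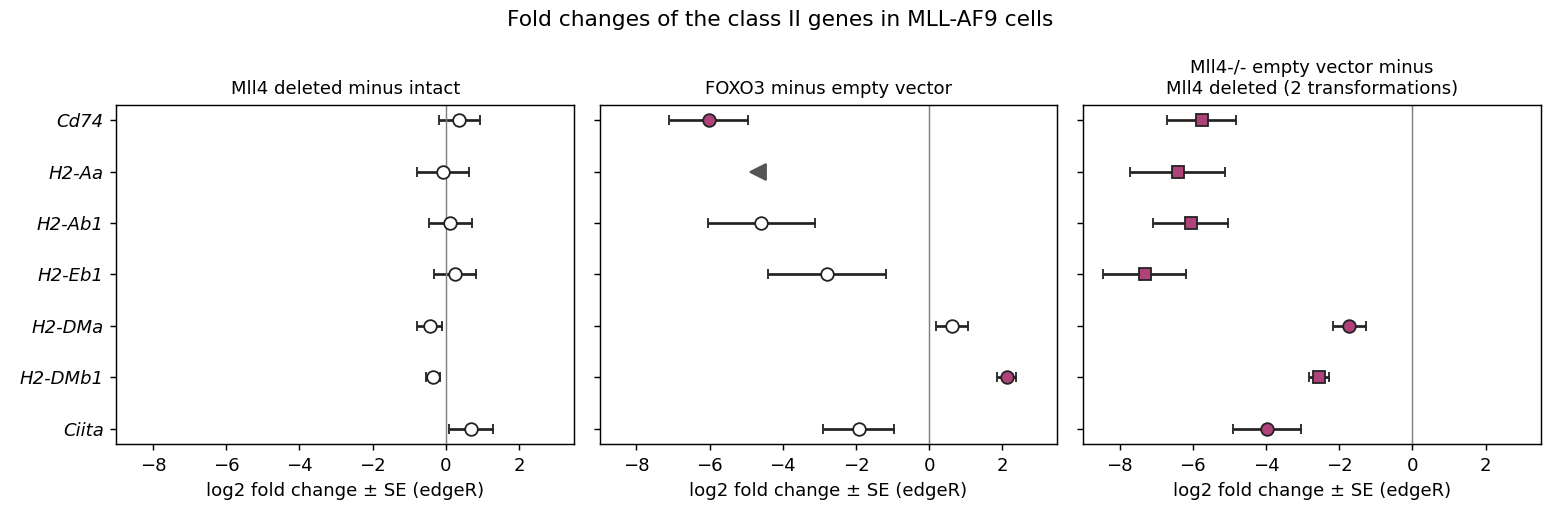
Log2 fold changes of the members with their SE in 3 comparisons of MLL-AF9 libraries, by edgeR. Red symbols passed an adjusted p of 0.05, squares also with the FOXO3 pair summed, and the grey triangle for H2-Aa marks the bound set by 0 counts with FOXO3. No member is red for Mll4 loss, Cd74 and H2-DMb1 are red with opposite signs for FOXO3, and all 7 are red and negative between the transformations.

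FOXO3 expression in Mll4-/- cells was compared with the empty vector, 2 libraries against 1. Cd74 fell and H2-DMb1 rose, so 2 of 7 members passed, 1 in each direction, beside 7.13% of all genes tested (2.2% higher and 4.93% lower). Cd74 went from 253 counts in the empty-vector library to 4 and 2 counts with FOXO3, a log2 fold change of −6.03 ± 1.08 (edgeR, adjusted p = 0.0319). As a ratio of pooled counts it was 65.8-fold lower, with a 95% exact binomial interval of 29.8 to 181 that covers counting error only. H2-DMb1 rose 4.33-fold (log2 fold change 2.12 ± 0.27, adjusted p = 0.0126), and every FOXO3 library lay above the empty-vector library. These calls rest on the FOXO3 pair being counted as 2 libraries. With the pair summed, 0 of 7 members passed (Cd74 adjusted p = 0.112, H2-DMb1 adjusted p = 0.0633), beside 1.19% of all genes. Leaving out FOXO3 library 1 or 2 also gave 0 of 7, with adjusted p of 0.133 or 0.166 for Cd74 and 0.0695 or 0.0687 for H2-DMb1.

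The other chains had estimates of the same sign as Cd74 without passing by edgeR. H2-Aa went from 49 counts to 0 in both FOXO3 libraries, at least 25.5-fold lower against a floor of 3 counts over the pair (adjusted p = 0.181). H2-Ab1 went from 48 counts to 1 and 2 counts, 25.0-fold lower by pooled counts with an interval of 8.05 to 125 (log2 fold change −4.58 ± 1.46, adjusted p = 0.135). H2-Eb1 went from 18 counts to 2 and 2 counts (−2.79 ± 1.60, adjusted p = 0.376). DESeq2 called H2-Aa and H2-Ab1 lower beside Cd74 (adjusted p = 0.00119 and 0.000378). Ciita went from 17 counts to 4 and 3 counts (−1.92 ± 0.97, adjusted p = 0.317) and H2-DMa had 0.63 ± 0.43 (adjusted p = 0.465). The median over the 7 members was −2.79, also with H2-Aa set to its bound, against −0.04 over all genes.

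Relatives of the members gave values on both sides. Of all genes tested with FOXO3, 2.2% were called higher and 4.93% lower. H2-DMb2, the copy of H2-DMb1, rose (1.84 ± 0.28, adjusted p = 0.02, or 0.0963 with the pair summed), from 4.19 CPM with the empty vector to 16.1 and 14.8 CPM with FOXO3. H2-Ob, the beta chain of H2-DO, stood at 4.67 CPM with the empty vector and 0.297 and 0.201 CPM with FOXO3 (−4.28 ± 0.96, adjusted p = 0.061). Its partner H2-Oa stood at 11.6 CPM and at 3.16 and 3.10 CPM (−1.93 ± 0.70, adjusted p = 0.176). Of 18 processing genes, Lgmn (−6.01 ± 0.60, adjusted p = 0.00651) and Ctss (−5.12 ± 0.52, adjusted p = 0.00657) fell, both endosomal proteases that act on the invariant chain or on antigen. Of 16 class I genes, 3 fell: Nlrc5, the coactivator of class I genes related to CIITA (−4.02 ± 0.57, adjusted p = 0.0171), and the proteasome genes Psme1 and Psmb9. Of 10 costimulation genes, Tnfsf9, Cd48 and Pdcd1lg2 fell, while Cd80 (−0.54 ± 0.34) and Cd86 (−2.12 ± 0.62) did not pass.

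Of 22 tested regulators, 2 passed with FOXO3, beside 7.13% of all genes tested (2.2% higher and 4.93% lower). Ifngr2 fell (−0.65 ± 0.13, adjusted p = 0.0419) and Ifngr1 rose (0.91 ± 0.18, adjusted p = 0.0426), both chains of the receptor for interferon gamma, the main inducer of Ciita. Rfx5 (−0.42 ± 0.16), Rfxap (0.16 ± 0.18), Rfxank (0.49 ± 0.25) and the myeloid factor Irf8 (−0.55 ± 0.66) did not pass. Most macrophage markers moved with the chains: 12 of 14 had negative fold changes, 5 of them called, and 2 had positive ones. Their summed level was 136 CPM with the empty vector and 45.5 and 47.8 CPM with FOXO3, where 3 of the 14 had 0 counts. Of these sums Mrc1 alone made up 43.3 CPM and 1.89 and 2.07 CPM. Cd14 went the other way (5.10 CPM with the empty vector, 9.33 and 9.98 CPM with FOXO3), as did Cd163 (0.705, 1.08 and 1.29 CPM). Markers of other cells also leaned lower. Negative fold changes were found for 7 of 9 neutrophil, 7 of 10 LSK and progenitor and 4 of 7 tested T and NK cell markers. Positive ones numbered 2, 3 and 2. The medians of these lists were −1.26, −1.80 and −1.18, against −1.78 for the macrophage list. Dendritic cell markers had 3 of 14 lower (Itgax, Flt3 and Ccl17) and Tcf4 higher. The signs in that list were negative for 8 genes and positive for 6. Its summed level did not fall with the chains, at 232 CPM with the empty vector and 285 and 284 CPM with FOXO3. With the FOXO3 pair summed, the calls that remained among these lists were Lgmn, Tnfsf9, Cd48, Itgax and the macrophage receptor Mrc1. The part of these cell types in the lower class II levels was not tested. In bulk samples, fewer cells of a type and less RNA per cell cannot be told apart.

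In the fit of the 7 MLL-AF9 libraries, the comparison in which all 7 members passed was between cultures that share the label of Mll4 loss. They all fell from the Mll4 deleted libraries of the first transformation to the empty-vector library of the second, beside 12.2% of all genes called lower and 21.7% called in either direction. The log2 fold changes by edgeR were −7.31 ± 1.14 for H2-Eb1 (adjusted p = 0.0136), −6.42 ± 1.29 for H2-Aa (adjusted p = 0.0327), −6.05 ± 1.02 for H2-Ab1 (adjusted p = 0.0167) and −5.76 ± 0.95 for Cd74 (adjusted p = 0.0158). Ciita fell 15.7-fold (−3.97 ± 0.93, adjusted p = 0.0353), H2-DMb1 fell 5.86-fold (−2.55 ± 0.28, adjusted p = 0.00708) and H2-DMa fell 3.30-fold (−1.72 ± 0.46, adjusted p = 0.0486). The members' median was −5.76, against 0.00 over all genes. The cultures differ in transformation, vector, selection and way of Mll4 loss, so what the gap belongs to cannot be told apart, and the second transformation is 1 library here. The comparison shares its Mll4 deleted libraries with that of Mll4 loss and its empty-vector library with that of FOXO3.

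With the FOXO3 pair summed, 5 of the 7 remained called, beside 5.9% of all genes called lower. Ciita (adjusted p = 0.0797) and H2-DMa (adjusted p = 0.0963) did not pass there. The count was also 5 without Mll4 deleted library 2 (H2-Aa adjusted p = 0.0636, Ciita adjusted p = 0.0622) and without FOXO3 library 1 or 2. H2-DMa further missed the threshold without intact library 1 or 2 (adjusted p = 0.0832 and 0.0841) and with sex as a term (adjusted p = 0.0836). A fit of the 3 compared libraries alone called 0 members (smallest adjusted p = 0.0702) and 0 genes in all. The direction was negative for all 7 members under every alternative that gave a value.

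Much of the wider pathway was lower in the same comparison, and parts of it were not. Of all genes tested, 12.2% were called lower and 21.7% in either direction. Of 18 processing genes 12 fell and 1, Ap1m1, rose, with Ctsh (−3.45 ± 0.33, adjusted p = 0.00562), the class II ubiquitin ligase Marchf1 (−4.15 ± 0.49, adjusted p = 0.00828) and Lgmn (−4.22 ± 0.54, adjusted p = 0.00925) at the smallest p. Ctss fell (−4.52 ± 0.62, adjusted p = 0.0108). Of 10 costimulation genes 6 fell, among them Cd274, Cd80 (−3.19 ± 0.38) and Cd86 (−4.54 ± 0.54). H2-DMb2 fell (−2.48 ± 0.29, adjusted p = 0.00801). The H2-DO genes did not pass: H2-Oa had −0.15 ± 0.72 and H2-Ob −0.15 ± 0.88 (adjusted p = 0.897 and 0.918). H2-Oa stood at 11.6 CPM with the empty vector, between the 5.61 and 18.6 CPM of the Mll4 deleted libraries.

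Among 22 regulators 6 fell and 2 rose, beside 12.2% of all genes called lower and 21.7% called in either direction. Irf4 (−5.60 ± 0.42, adjusted p = 0.00386), Irf8 (−4.17 ± 0.75, adjusted p = 0.0192), Batf3, Ifngr1 and Ifngr2 fell with Ciita, and Creb1 and Nfyc rose. The RFX genes did not pass, with 0.04 ± 0.17 for Rfx5, −0.34 ± 0.18 for Rfxap and −0.21 ± 0.25 for Rfxank. Of 16 class I genes 6 fell, and their sizes were smaller: −1.42 ± 0.16 for H2-D1, −1.08 ± 0.16 for H2-K1 and −2.72 ± 0.54 for Nlrc5. With the FOXO3 pair summed, H2-D1 was the 1 class I call that remained, and Irf4, Irf8, Batf3, Ifngr2 and Creb1 those among regulators. The class I list's median of −0.16 compares with −5.76 for the class II members.

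Between the transformations, 14 of 14 macrophage markers and 12 of 14 dendritic cell markers had negative fold changes, as all class II members did. Of all genes tested, 12.2% were called lower. Of 14 macrophage markers 13 fell, and their summed level was 1743 and 2850 CPM in the Mll4 deleted libraries, 3452 and 3954 CPM in the intact ones and 136 CPM with the empty vector. Of 14 dendritic cell markers 7 fell, among them Ccl22, Ccr7 and Sirpa, with the list's sum at 803 and 1157 CPM against 232 CPM. With the FOXO3 pair summed the counts of lower macrophage and dendritic cell markers were 12 and 7, beside 5.9% of all genes called lower. Of 8 tested B cell markers, edgeR called 0 (2 had an unadjusted p below 0.05). Pax5 had 0 counts in all 9 libraries, and Ms4a1 stood at 0.038 CPM or less in each. The part of macrophages and dendritic cells in the class II gap was not tested.

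**Figure D3:**
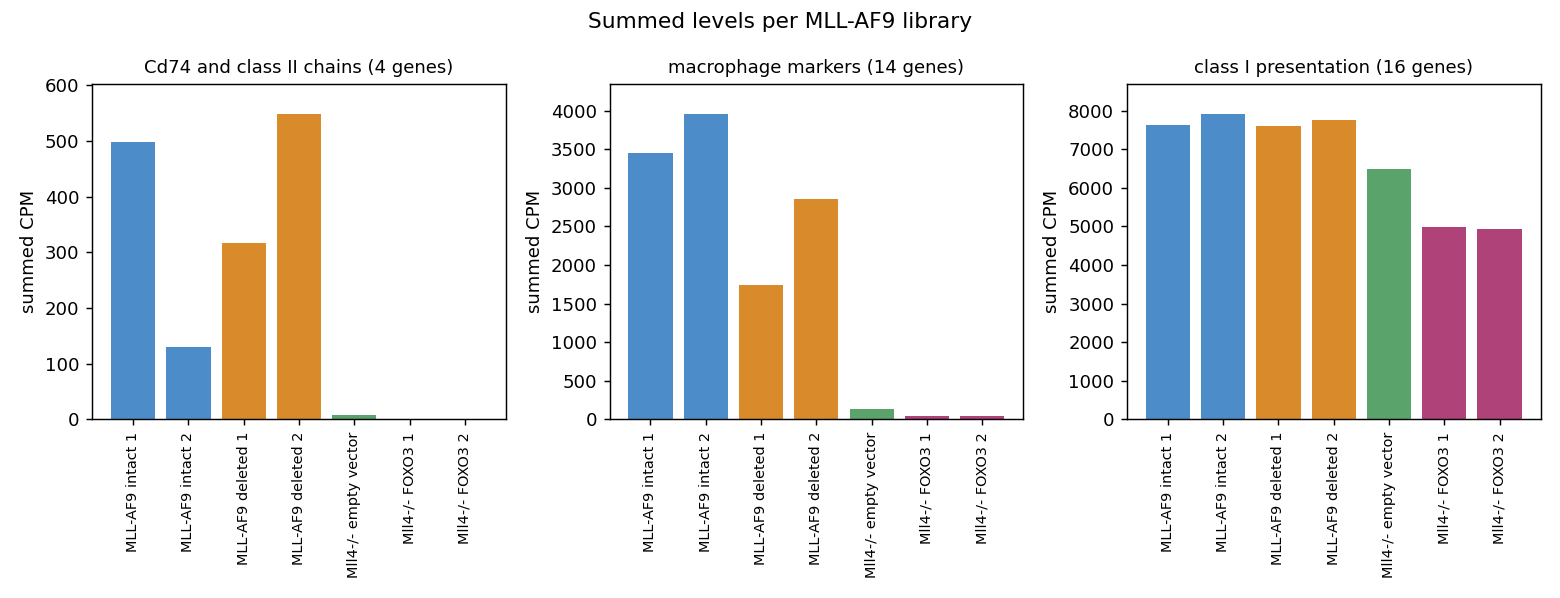
Summed CPM per MLL-AF9 library (bars, 1 per library, axes from 0) of Cd74 with the 3 chains, of 14 macrophage markers and of 16 class I genes. The class II sum is 129 CPM in intact library 2 against 497 CPM in intact library 1 while the macrophage sum is higher in library 2. Both sums are low in the second transformation. The class I sum is 7598 to 7906 CPM in the first transformation and, lower in every library, 4925 to 6492 CPM in the second.

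Side by side over the 6 groups, Cd74 and the chains thus had 1 order at the low end: FOXO3 below the empty vector, and both below every other MLL-AF9 library. The summed level of Cd74 and the 3 chains was 0.189 and 0.134 CPM with FOXO3, 7.01 CPM with the empty vector, 129 and 497 CPM in the intact libraries and 316 and 548 CPM in the Mll4 deleted ones. The intact and Mll4 deleted groups did not differ beyond their spread. For H2-DMa and H2-DMb1 the empty vector was the lowest group, and 5 of 7 members had their lowest group mean with FOXO3. The FOXO3 and Mll4 deleted groups differed by 1.18-fold in pooled counts for H2-DMb1 and by 3040-fold for Cd74 (95% exact binomial interval 1396 to 8284, counting error only). These groups also differ in transformation, vector, selection and way of Mll4 loss, so the part of FOXO3 in these ratios cannot be told apart. The interval leaves out the spread between the libraries of a group.

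By the rule for likeness, genes were ranked by Pearson's r over the 7 MLL-AF9 libraries with the mean log2(CPM + 1) of the members. The 6 highest of 10409 other genes were Glrx, Ptpn23, Tmem26, Tut4, Mvp and Pald1, with r from 0.991 to 0.995. Tmem26 stood at 5.60 to 14.5 CPM in the first transformation, 0.419 CPM with the empty vector and 0 counts with FOXO3. Pearson's r does not measure the size of a change, and the changes of Glrx and Ptpn23 were smaller. Glrx stood at 190 to 243 CPM in the first transformation and 106 to 116 CPM in the second, and Ptpn23 at 61.6 to 70.1 and 40.6 to 41.4 CPM. For Ciita alone the highest genes were Lbh, Gpr65 and Pfdn5, with r from 0.986 to 0.997. The libraries fall into 2 clusters by transformation, and 267 genes reached an r of 0.95 with the members' mean, so likeness to the members and the gap between the transformations cannot be told apart.

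The LSK libraries, 1 per genotype, have no replicate check and no test. In the library labelled Mll4 deleted Cd74 was higher, at 2706 counts (104 CPM) against 268 counts (10.1 CPM) in the wild type library. H2-Aa was higher at 3960 against 1193 counts (153 and 44.8 CPM), and H2-Ab1 at 6734 against 2092 counts (260.1 and 78.6 CPM). The log2 ratios were 3.37 for Cd74 (95% exact binomial interval 3.19 to 3.56), 1.77 for H2-Aa (1.68 to 1.86) and 1.73 for H2-Ab1 (1.65 to 1.80). H2-Eb1 went the other way, at 12 against 976 counts (0.463 and 36.7 CPM), a log2 ratio of −6.31 (−7.26 to −5.50). Per kilobase, H2-Eb1 was at 0.00129 times H2-Ab1 in the library labelled Mll4 deleted and at 0.339 times in the wild type one.

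The remaining members differed less. H2-DMa had 2231 against 1175 counts (log2 ratio 0.96, interval 0.86 to 1.07), and the interval of H2-DMb1 included 0 (510 against 584 counts, −0.16, −0.33 to 0.02). Among the 6 members averaging 1 CPM or more, 3 were at least 2-fold higher in the library labelled Mll4 deleted and 1 at least 2-fold lower. Over the 10174 genes at that level, 28.1% were at least 2-fold higher and 34.9% at least 2-fold lower, 63% in all, so differences of this size were common between these libraries of about 50 cells. H2-Ob, at 54 against 1527 counts (−4.78, −5.20 to −4.39), and Rfx5, at 115 against 1047 counts (−3.15, −3.44 to −2.87), were lower in the library labelled Mll4 deleted. Rfxap had 0 against 1252 counts, while Rfxank was higher, at 1027 against 640 counts (0.72, 0.58 to 0.87). H2-DMb2 had 319 against 327 counts.

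Markers of class II positive cells were also read in the LSK libraries. The macrophage list summed to 9.38 CPM (Mll4 deleted) and 7.71 CPM (wild type), with 9 and 11 of its 14 genes at 0 counts. Of 12 B cell markers 9 and 7 were at 0 counts, with Pax5 at 0 in both, and the list summed to 51.2 and 55.1 CPM. Its 3 genes averaging 1 CPM or more went different ways. Cd79b stood at 35.5 and 0.752 CPM, Cd37 at 12.1 and 49.2 CPM and Cd22 at 3.55 and 4.44 CPM. Irf8, a factor of monocyte and dendritic cell precursors, stood at 24.4 and 0.301 CPM. The dendritic cell list summed to 335 and 321 CPM, of which Flt3, also a receptor of LSK progenitors, made up 212 and 221 CPM. Of its 8 genes averaging 1 CPM or more, 3 were at least 2-fold higher in the library labelled Mll4 deleted and 1 at least 2-fold lower. Named after their values were seen, the higher ones were Clec10a (1991 against 300 counts, 76.9 and 11.3 CPM), Sirpa (88 against 11 counts) and Clec9a (63 against 0 counts), and Bst2 was lower (89 against 619 counts). Clec10a thus moved in the direction of Cd74, H2-Aa and H2-Ab1, and its part in their difference was not tested.

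**Figure D4:**
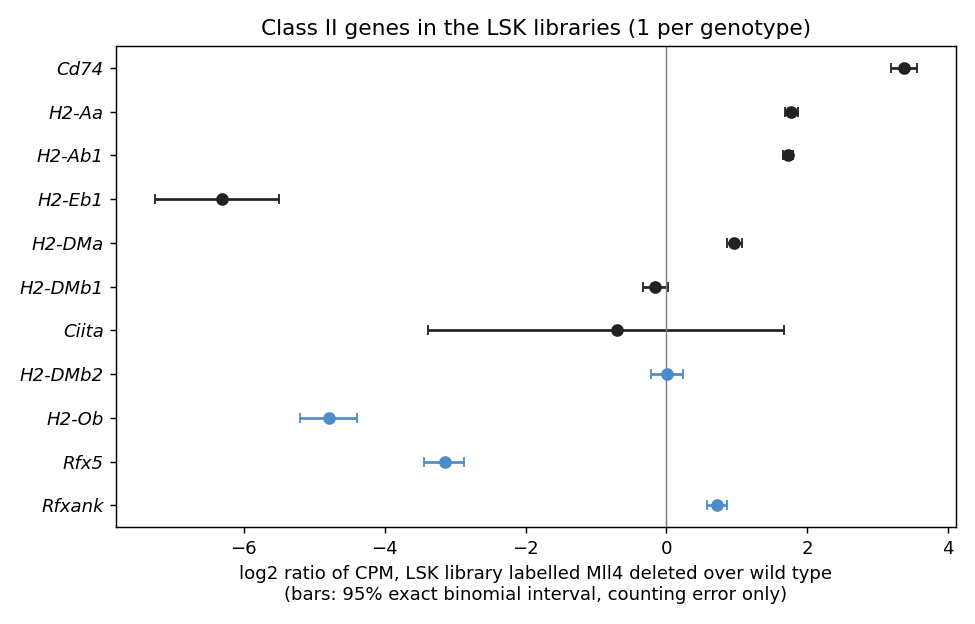
Log2 ratio of CPM between the LSK library labelled Mll4 deleted and the wild type one for the members (black) and 4 related genes (blue), with 95% exact binomial intervals that cover counting error only. Cd74, H2-Aa, H2-Ab1 and H2-DMa lie right of 0 and H2-Eb1 far left at −6.31, while the intervals of H2-DMb1, H2-DMb2 and Ciita include 0.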

How the data were processed

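For each library the authors deposited 1 file of unnormalized counts of reads by NCBI gene number. The build mm9 and the aligners Bowtie 0.12.8 and TopHat2 2.0.11 are named in the submitters' processing notes. How reads were assigned to genes, and whether strand was used, was not stated there, and overlapping genes may share reads. Symbols came from the RefSeq table of GRCm38.p6 (23185 of 23282 numbers matched). Promoter sequences are RefSeq's of that build, and no position was joined to the counts.

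Members and gene lists were chosen with earlier results of these data known. The 7 MLL-AF9 libraries were fitted together with a coefficient for each of 4 groups in edgeR 4.0.16 (R 4.3.3; TMM scaling, default expression filter, quasi-likelihood test), with Benjamini-Hochberg adjustment over all 14997 genes tested and a threshold of 0.05. All 7 members passed the filter. SE is the size of the log2 fold change over the square root of F. DESeq2 1.42.0 was an alternative. CPM uses library totals alone. LSK libraries were compared by ratios with exact binomial (Clopper-Pearson) intervals from SciPy 1.17.1, which cover counting error only, as PCR copies are not independent molecules. The method was also run on simulated data with changes set in the Mll4 deleted group alone and read for Mll4 loss. That run does not cover the comparisons with the single empty-vector library. Named besides the members were fixed genes and the 3 smallest p among called genes of a list. Coding sequence lengths were replaced by GENCODE M21 transcript lengths.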

Additional observations from a re-analysis of the deposited data

How the results depend on the processing

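For Mll4 loss the count of called members was 0 under every alternative run except 1 without Mll4 deleted library 2. Leaving out 1 library gave 0 to 1. The replicate block, from numbers in the file names, gave 0. Each number joins a female with a male library, so the block does not stand for shared marrow. For FOXO3 the 2 calls became 4 with DESeq2, 7 when only the 3 compared libraries were fitted (9710 genes called in all) and 0 with the FOXO3 pair summed, and 0 to 3 when 1 library was left out. Between the transformations the 7 calls became 0 when only the compared libraries were fitted, and 5 to 7 when 1 library was left out. The empty vector is 1 library, so leaving it out gave no value for these comparisons, and it carries no number for a block. Leaving out 1 library, log2 fold changes for Mll4 loss ran from −0.23 to 1.38 for Cd74, −0.78 to 1.29 for H2-Aa, −0.53 to 1.37 for H2-Ab1, −0.41 to 1.52 for H2-Eb1 and −1.04 to 0.064 for H2-DMa. The sign of H2-Aa turned with library totals only (0.14), the replicate block (0.18), sex as a term (0.19) and without Mll4 deleted library 1 (0.34) or intact library 1 (1.29). Without Mll4 deleted library 2, Cd74 (−0.17), H2-Ab1 (−0.14) and H2-Eb1 (−0.03) turned, as they did without intact library 2 (−0.23, −0.53 and −0.41), and H2-DMa turned without Mll4 deleted library 1 (0.064). The cause was not tested.

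Over all genes, 2237 calls for Mll4 loss became 3540 with library totals only (2940 higher and 600 lower against 1196 and 1041), 3706 with DESeq2, 312 with the FOXO3 pair summed and 0 from the compared libraries alone. For FOXO3, 1069 became 2166 with DESeq2 and 178 with the pair summed, and between the transformations 3260 became 1045 with the pair summed. LSK ratios stayed within their intervals under both other scalings. At 1 to 4 counts per FOXO3 library, differences among the chains there were not detectable at this depth.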
